A study of Mus musculus with 6 samples.

Results

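Mouse embryonic stem cells, in a background labelled 129/B6 hybrid, were profiled on 6 Affymetrix arrays, 1 array for each of 3 cell clones with 4-hydroxytamoxifen (OHT+) and 1 without it (OHT-), and the question here is whether the response to OHT depended on the level of Yaf2. OHT was given at 0.8 µM for 24 hours to deplete Rybp. Clone 3031 has wild-type Yaf2 (Yaf2wt) and is labelled wild type without OHT and Rybp-depleted with it. Clones 3086 and 3087 carry a Yaf2 knockdown (Yaf2kd), labelled mutant for Yaf2, with wild-type Rybp without OHT and Rybp-depleted with it. The sources used here do not state how Yaf2 was knocked down or how OHT acts on the Rybp gene. Yaf2wt is thus 1 clone, so Yaf2 status and clone cannot be told apart, and each OHT difference comes from 1 pair of arrays of the same clone. Of 18194 genes with a probe set of their own, the 10923 whose geometric mean intensity over the 6 arrays was 106 or more were compared. The other 7271 dim genes were left out. The brightest probe set stood for each gene.

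Rybp and Yaf2 are homologous small proteins that bind RING1 proteins in the variant forms of Polycomb repressive complex 1 (PRC1), a complex that ubiquitinates histone H2A and keeps genes silent. A given PRC1 complex carries Rybp or Yaf2, not both. In embryonic stem cells the PRC1.6 form, which finds its targets through the Mga-Max pair of E-box binding proteins and through E2f6, keeps many genes of germ cells and meiosis low. The comparison can describe 3 kinds of outcome: a response shared by the clones, a response that adds to an effect of Yaf2 itself, and a response that differs with Yaf2.

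The targeted genes were read on every array. The annotation gives both Rybp probe sets to the gene together with its pseudogene Rybp-ps. The first was at 1997 (clone 3031), 1785 (clone 3086) and 2262 (clone 3087) without OHT. With OHT it was at 102, 101 and 53.9 in the same order, below the intensity limit. Its OHT difference was -4.29, -4.14 and -5.39 (log2), so the 3 clones lost this signal alike and the OHT arrays are set apart from the others in each. The other Rybp probe set went from 180 to 3247 in clone 3031, from 211 to 3443 in clone 3086 and from 336 to 2796 in clone 3087. The sources used here do not say which part of the transcript each one reads. Yaf2 was at 816 and 769 in clone 3031, at 293 and 297 in clone 3086 and at 238 and 278 in clone 3087, without and with OHT in each case. The Yaf2kd arrays lie well below both Yaf2wt arrays, and the log2 difference between the groups was -1.63 without OHT and -1.42 with it. The OHT difference of Yaf2 was -0.09 (clone 3031), 0.02 (clone 3086) and 0.23 (clone 3087).

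The labelled cell type was checked first. All 10 embryonic stem cell markers (Pou5f1, Sox2, Nanog and others) were at or above the limit on every array. Of 9 measured markers of fibroblasts, which can be present as feeder cells, 4 were at or above the limit on every array and Lum and Dcn were below it on all. Their summed intensity was 3853 and 4635 in clone 3031, 5520 and 6616 in clone 3086 and 5249 and 7517 in clone 3087, without and with OHT. It was higher with OHT in every clone and higher in both Yaf2kd clones, and its part in the results was not tested. The highest single fibroblast value was 5468, so this sum rests largely on 1 marker. The median OHT difference of the 9 was 0.35, 0.28 and 0.74 (log2) in clones 3031, 3086 and 3087. Of 5 trophectoderm markers, 4 were below the limit on all arrays. The summed intensity of the 5, without and with OHT, was 316 and 367 in clone 3031. It was 339 and 510 in clone 3086 and 289 and 506 in clone 3087. The highest single value was 401, that of Krt7, so this sum rests largely on that gene. The median OHT difference of the 5 was -0.32, 0.78 and 0.26 (log2) in clones 3031, 3086 and 3087. The sum of 4 neural markers was lower with OHT in each clone, at 1199 and 853, 1437 and 1058, and 1518 and 917. Their part in the results was not tested either. In RNA from whole cultures, fewer cells of a type and less RNA per cell cannot be told apart.

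The OHT responses of the 3 clones differed in breadth. With OHT, 62 genes were 2-fold or more higher and 27 lower in clone 3031, 130 and 39 in clone 3086, and 185 and 104 in clone 3087. The OHT differences had a standard deviation over the 10923 genes of 0.298 (clone 3031), 0.349 (clone 3086) and 0.408 (clone 3087), on the log2 scale. The Yaf2kd clones thus had the wider spread, but they differed from each other as well. Across genes, Pearson's r of the OHT differences was 0.377 between clones 3031 and 3086 (Spearman's rho 0.283), 0.384 between 3031 and 3087 (0.340), and 0.293 between the 2 Yaf2kd clones (0.208). The median absolute difference between clones was 0.203, 0.217 and 0.253 (log2) in the same order. Genes 2-fold or more apart numbered 203 (1.86%), 314 (2.87%) and 423 (3.87%). By each of these measures the Yaf2kd clones were less like each other than either was like the Yaf2wt clone. Genes are not replicates, so these values describe the 3 pairs and carry no test.

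**Figure D1:**
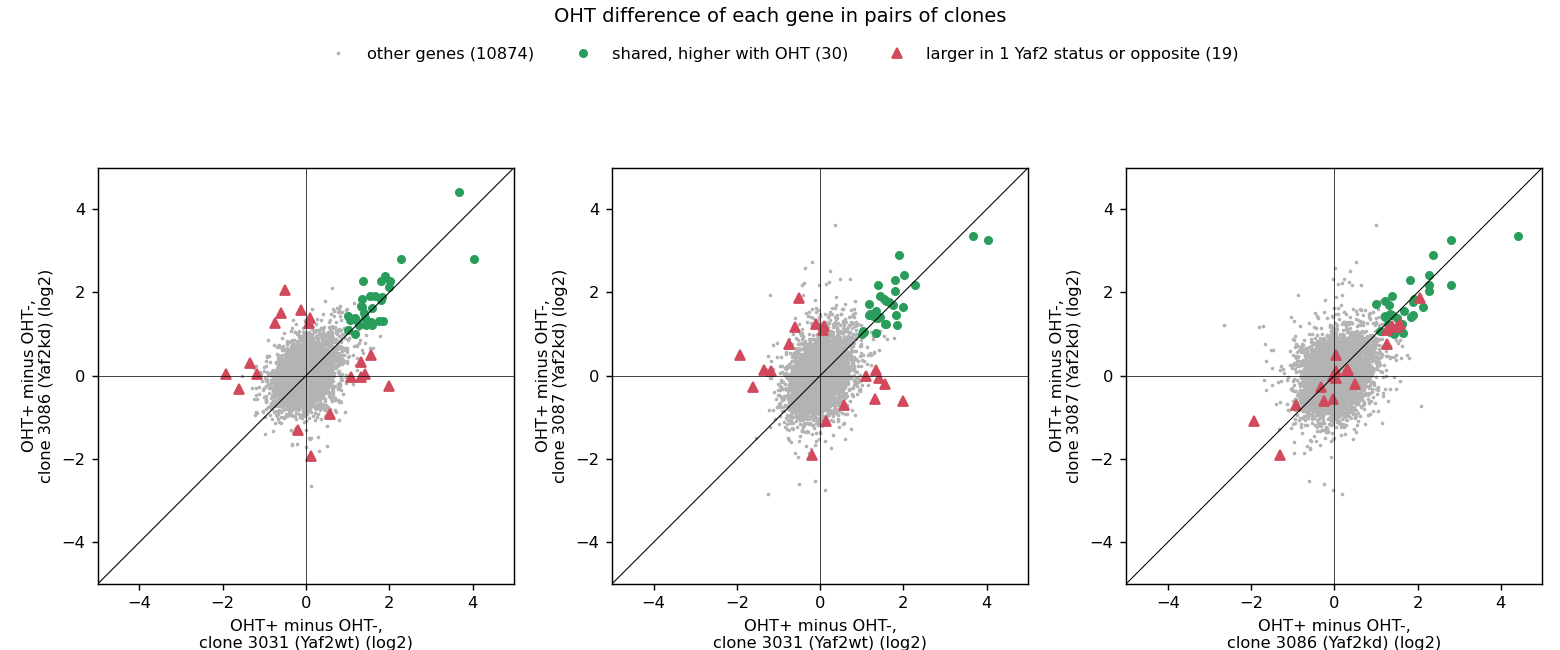
Each point is 1 of 10923 genes, placed by its OHT difference (log2 intensity with OHT minus without) in 2 clones, with the diagonal of equal response. The 30 shared genes (green) lie along the diagonal in all 3 panels, while the 19 genes chosen for a larger or opposite response in 1 Yaf2 status (red) lie off it in the left and middle panels and near it, by that choice, in the right.

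The direct test of the question is the difference of the OHT differences, Yaf2kd minus Yaf2wt, fitted with limma over the 4 groups. It called 0 of 10923 genes at an adjusted p under 0.05 (0% called). The lowest adjusted p was 1.00, and 201 genes had an unadjusted p under 0.05, fewer than the 546.15 that uniform p-values give. With the clone as a replicate block, which pairs the arrays of a clone, it also called 0, with 307 genes at an unadjusted p under 0.05 and a lowest adjusted p of 0.194. The design bounds what this can show. At the median standard error of 0.302 a gene passing alone would need a difference of 4.44 (log2), or 21.7-fold, and the largest seen was 2.48. A typical gene's difference was known to within 0.732 either way (the median half-width of the 95% interval, log2). In 6476 genes (59.3%) that interval lay within 2-fold of an equal response. The median difference was 0.0253, its median size 0.170, and 106 genes differed by 2-fold or more.

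Both Yaf2kd clones lay above the Yaf2wt clone in 3617 genes (33.1%) and below it in 2849 (26.1%), and the Yaf2wt clone lay between them in 4457 (40.8%). These shares are the background for the gene groups below. A stricter measure is the gap, the distance of the Yaf2wt clone from the nearer Yaf2kd clone where both lie on the same side. The gap was 2-fold or more in 39 genes, with Yaf2kd higher in 22 and lower in 17, and 20 of the 39 were at or above the limit on all 6 arrays.

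The largest named group in the shared response was genes of germ cells and meiosis. At least 2-fold higher with OHT in all 3 clones were 30 genes (0.275%), and 0 genes (0%) were 2-fold lower in all 3. Rybp, whose probe sets are annotated together with Rybp-ps, is not among the genes counted. The median OHT difference of the 30 was 1.55 (clone 3031), 1.64 (clone 3086) and 1.602 (clone 3087). Both Yaf2kd clones lay above the Yaf2wt clone in 12 of the 30, below it in 5 and on either side of it in 13. The germline and meiosis list held 12 of the 30 (40%), and 0.412% of all genes compared. That list was chosen with earlier results of these data known, so these shares are a description. Of the 30, 15 were at or above the limit on every array, and 7 were below it on all 3 arrays without OHT, so that they entered the comparison through the arrays where they are high. Pdgfrb, which is also a fibroblast marker, is 1 of the 30, with OHT differences of 1.21, 1.34 and 1.49 in clones 3031, 3086 and 3087.

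**Figure D2:**
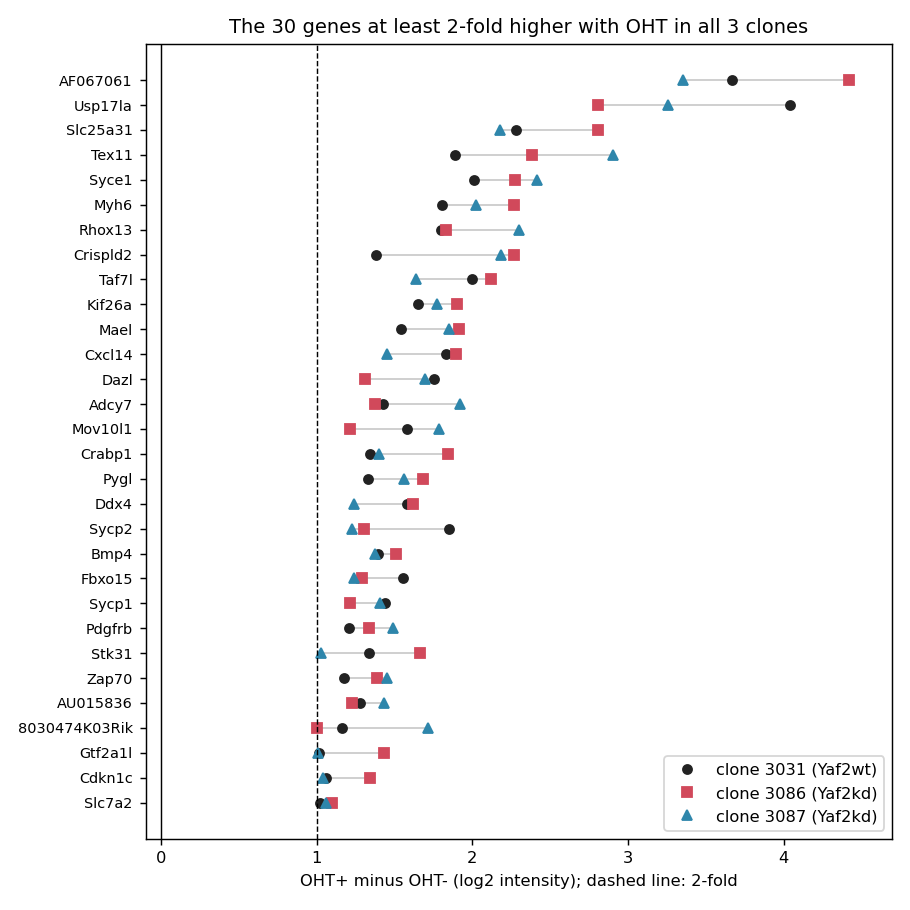
OHT difference (log2 intensity, OHT+ minus OHT-) of the 30 genes at least 2-fold higher in all 3 clones, 1 symbol per clone, with the range joined by a grey line and 2-fold dashed. The Yaf2wt clone (black) is at the low end for Tex11, Crispld2 and Mael, at the high end for Usp17la, Sycp2 and Fbxo15, and inside the range for Ddx4 and Bmp4.

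In the additive limma model, which estimates 1 OHT effect over the 3 clones, 36 genes rose (0.33% of those tested) and 2 fell (0.0183%). That split moved with the setting: 39 rose and 15 fell over genes at or above the limit on all 6 arrays, 88 and 38 with an intensity trend, 48 and 10 with a pseudocount of 16, 56 and 14 with a pseudocount of 50, and 202 and 148 with the replicate block and an intensity trend. The residual of that model includes any difference between the Yaf2 groups, so a gene whose response depends on Yaf2 is less easily called. Of the 30 shared genes 26 are among the 36. With the clone as a replicate block, a paired fit, 54 rose and 10 fell, and 37 of the 38 were among them. The count rests on every array: it was 15 without the clone 3086 OHT- array, 4 without its OHT+ array, 22 without the clone 3087 OHT- array, 1 without its OHT+ array, and 4 without either array of clone 3031. Among all 18194 genes, dim ones included, it was 0, so the word rose below holds for the fit over the 10923 genes. In the 38 called genes, which that residual selects for small differences, the difference of the OHT differences was within 0.5 (log2) of 0 in 32, its median size was 0.234, and the 95% interval lay within 2-fold in 18. Both Yaf2kd clones lay above the Yaf2wt clone in 16 of the 38, below it in 9 and on either side in 13. The interval excluded 0 in 2, Piwil2 and Usp17la, before any adjustment, and Usp17la is dim without OHT. Of the 36 that rose, 6 were below the limit on all 3 arrays without OHT.

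Syce1, a central element protein of the synaptonemal complex, the scaffold that joins homologous chromosomes in meiosis, was at 268 without and 1079 with OHT in clone 3031, at 248 and 1198 in clone 3086 and at 238 and 1272 in clone 3087. All 3 arrays with OHT lie above all 3 without, and it rose by 2.23 ± 0.12 (log2 ± SE, limma adjusted p = 0.00402), with a Yaf2kd minus Yaf2wt difference of 0.34 ± 0.26. Sycp2, an axis protein of that scaffold, went from 90.9 to 328 in clone 3031, from 79.6 to 197 in clone 3086 and from 108 to 251 in clone 3087. It rose by 1.46 ± 0.19 (limma adjusted p = 0.0428), with a difference of -0.59 ± 0.38. Sycp1, its transverse filament, had OHT differences of 1.44, 1.21 and 1.41 in clones 3031, 3086 and 3087 and did not pass (adjusted p = 0.129, limma).

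Tex11, a meiotic recombination gene on the X chromosome, went from 117 to 433 in clone 3031, from 112 to 586 in clone 3086 and from 76.3 to 570 in clone 3087. It rose by 2.39 ± 0.21 (limma adjusted p = 0.00906), and its Yaf2kd minus Yaf2wt difference was 0.75, with a 95% interval from -0.16 to 1.67. Slc25a31, which carries ADP and ATP across the mitochondrial membrane of male germ cells, went from 113 to 547, from 79.2 to 556 and from 143 to 646 in clones 3031, 3086 and 3087. It rose by 2.42 ± 0.22, and the levels with OHT lay between 547 and 646 in the 3 clones. Taf7l, a germ-cell homologue of a TFIID subunit, went from 189 to 755, from 155 to 675 and from 230 to 718. It rose by 1.92 ± 0.16 with a difference of -0.12 ± 0.38. Rhox13, an X-linked homeobox gene of the germ line, rose by 1.98 ± 0.17 with a difference of 0.26 ± 0.39.

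Mael, a germline gene of the piRNA pathway, which silences transposons in germ cells, went from 645 to 1881 in clone 3031, from 603 to 2275 in clone 3086 and from 755 to 2726 in clone 3087, all well above the limit. It rose by 1.77 ± 0.15, with a difference of 0.34 and an interval from -0.45 to 1.13. Ddx4, the germ-cell RNA helicase, went from 847 to 2537, from 940 to 2892 and from 1025 to 2423. It rose by 1.48 ± 0.12, with a difference of -0.15 and an unadjusted 95% interval from -0.86 to 0.56. Mov10l1, a piRNA helicase, had OHT differences of 1.58, 1.21 and 1.79 in clones 3031, 3086 and 3087 (adjusted p = 0.0535, limma). Piwil2, a Piwi protein, differed more between the groups. It went from 507 to 890 in clone 3031, from 346 to 1112 in clone 3086 and from 371 to 1120 in clone 3087. Both Yaf2kd clones started lower and ended higher than the Yaf2wt clone. It rose by 1.36 ± 0.18 (limma adjusted p = 0.0435), and the difference was 0.82 with an interval from 0.19 to 1.46. Its unadjusted p of 0.0185 did not survive adjustment over all genes (adjusted p = 1.00, limma).

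Other shared genes showed the same range of behaviour. Dazl, an RNA-binding protein of germ cells, went from 257 to 865, from 285 to 708 and from 256 to 831 in clones 3031, 3086 and 3087, and rose by 1.59 ± 0.12. Its other probe set gave OHT differences of 1.99, 1.98 and 2.42. Of the shared genes 5 had another probe set at or above the limit, and in 4 of the 5 it was higher with OHT in all 3 clones. Stk31, a germ-cell kinase, rose by 1.34 ± 0.14 with a difference of 0.01 ± 0.34. Bmp4, a growth factor that induces primordial germ cells in the embryo, went from 148 to 390, from 142 to 405 and from 136 to 352, and its difference was 0.05 with an interval from -0.62 to 0.72. Fbxo15, an F-box gene of embryonic stem cells, went from 2173 to 6393, from 1904 to 4668 and from 2241 to 5299. It rose by 1.36 ± 0.13, with the Yaf2wt clone highest. Usp17la, a deubiquitinase gene of a repeated family, went from 59.3 to 976 in clone 3031, from 55.3 to 386 in clone 3086 and from 54.3 to 519 in clone 3087. The 3 arrays without OHT are below the limit, and it was at least 5.48-fold higher with OHT, a bound that sets the mean log2 intensity of the 3 brighter arrays against the limit of 106. With OHT the Yaf2wt clone was the highest of the 3, and the difference between the groups rests on those arrays. Members of that family can share probes, so its value is uncertain. Myh6, a cardiac myosin heavy chain, was also below the limit on the 3 arrays without OHT and was at least 2.83-fold higher with it. Crispld2, a secreted protein, went from 92.0 to 239, from 60.8 to 292 and from 83.3 to 379, at least 2.81-fold higher against the limit. Kif26a, a kinesin relative, had OHT differences of 1.65, 1.90 and 1.77 and did not pass (adjusted p = 0.0753, limma).

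Lower values with OHT were smaller. The 10 genes with the largest decrease common to the 3 clones were Eno3, Cnr1, Thap2, A930024E05Rik, Csn3, Tuba1a, Plekho1, Has2, Bend3 and Myb, and 2 of them passed the additive test. Eno3, the muscle enolase, went from 1011 to 596 in clone 3031, from 1307 to 717 in clone 3086 and from 1267 to 725 in clone 3087, and fell by 0.81 ± 0.10 (log2 ± SE, limma adjusted p = 0.0327). Its Yaf2kd minus Yaf2wt difference was -0.07, with an interval from -0.70 to 0.55. Cnr1, a cannabinoid receptor, was at 172 and 98.7 in clone 3031, at 182 and 71.9 in clone 3086 and at 173 and 71.2 in clone 3087. Its arrays with OHT are below the limit, and against the limit it was at least 1.66-fold lower. Myb, a transcription factor, had OHT differences of -0.70, -0.84 and -1.06 on the brightest probe set and -0.997, -0.91 and -1.31 on the other, and did not pass (adjusted p = 0.0535, limma). Bend3, a BEN-domain repressor, was at -0.71, -0.71 and -0.74.

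The promoters of these genes were read for the letters that PRC1.6 factors are known to bind. The E-box CACGTG is the site of Mga-Max, and GCGGGAA is a form of the E2f6 site, both searched on either strand from 250 bases before to 50 after the start in RefSeq's table (GRCm38.p6). Of the 30 shared genes 24 had a promoter there, and 10 of them (41.7%) held the E-box, 3 (12.5%) the E2f site and 2 (8.33%) both. Of 8897 genes at or above the limit with a promoter, 12.3% held the E-box, 10.3% the E2f site and 0.989% both. Among all 32851 promoters of the table the shares were 7.15%, 4.60% and 0.457%. The 2 shared genes with both are Slc25a31 and Ddx4. Of the genes with a larger response in Yaf2kd 2 of 6 (33.3%) held the E-box, and of those with a larger response in Yaf2wt 2 of 10 (20%). The promoters of 4 genes are shown as examples of these letters, 3 with a shared response and Hormad1, whose response was 2-fold only in the Yaf2kd clones. Each run is the 250 bases before the start site, 5′ to 3′ on the gene's strand, and capitals mark the E-box or the E2f site. They lie at chr3:40708621-40708870 (plus strand) for Slc25a31, chr13:112652311-112652560 (minus) for Ddx4, chrX:134476491-134476740 (minus) for Taf7l and chr3:95559427-95559676 (plus) for Hormad1. The E2f site of Slc25a31 lies after the start and outside the run.
Slc25a31: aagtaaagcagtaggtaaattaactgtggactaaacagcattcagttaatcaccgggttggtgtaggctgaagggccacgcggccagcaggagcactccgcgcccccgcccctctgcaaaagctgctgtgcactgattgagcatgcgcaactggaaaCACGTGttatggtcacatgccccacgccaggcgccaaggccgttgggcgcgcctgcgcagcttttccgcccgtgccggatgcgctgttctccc
Ddx4: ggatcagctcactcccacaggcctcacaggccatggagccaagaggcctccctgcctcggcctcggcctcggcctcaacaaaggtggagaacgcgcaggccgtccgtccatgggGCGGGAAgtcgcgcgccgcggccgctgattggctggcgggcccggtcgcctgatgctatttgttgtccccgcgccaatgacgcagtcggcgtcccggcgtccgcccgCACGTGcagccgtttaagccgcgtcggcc
Taf7l: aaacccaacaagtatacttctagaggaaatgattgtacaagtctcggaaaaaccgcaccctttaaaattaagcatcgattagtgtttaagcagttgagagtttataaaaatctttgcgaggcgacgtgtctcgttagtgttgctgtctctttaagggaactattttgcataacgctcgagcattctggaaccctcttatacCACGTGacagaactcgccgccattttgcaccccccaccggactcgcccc
Hormad1: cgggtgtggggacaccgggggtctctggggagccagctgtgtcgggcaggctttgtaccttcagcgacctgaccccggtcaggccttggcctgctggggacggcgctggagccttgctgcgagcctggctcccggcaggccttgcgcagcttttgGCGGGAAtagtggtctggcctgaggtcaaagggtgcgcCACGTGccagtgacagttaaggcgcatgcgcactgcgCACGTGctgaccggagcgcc
The E-box is present once in Slc25a31, Ddx4 and Taf7l and 2 times in Hormad1. It is absent from the promoters of Syce1 and Dazl, which are shared genes, and of Rgcc and Dpp4, with a larger response in Yaf2kd. A match is a description of the letters and not evidence of binding.

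Genes with a larger response in the Yaf2kd clones were few. By size, 5 genes (0.0458%) were at least 2-fold higher with OHT in both Yaf2kd clones and 2-fold beyond the Yaf2wt clone (Trpm1, Syndig1, Rgcc, Dpp4 and Hormad1). In 3 of them (0.0275%), Rgcc, Dpp4 and Hormad1, the Yaf2wt clone stayed within 0.5 (log2) of 0. In the other direction were 2 genes (0.0183%), Sox3 and Atxn7l2, both with the Yaf2wt clone within 0.5 of 0 (0.0183%). None of these passed the test of the difference (adjusted p = 1.00 each, limma).

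Hormad1, a protein of the meiotic chromosome axis, was at 226 without and 239 with OHT in clone 3031, at 118 and 285 in clone 3086 and at 135 and 288 in clone 3087. The levels with OHT are alike in the 3 clones, and the Yaf2kd clones are lower without it. Its difference of the OHT differences was 1.10, with an unadjusted interval from 0.44 to 1.76, in a gene picked for the size of that difference. Dpp4, a cell-surface dipeptidase, had the same form, with 237 and 255 in clone 3031, 119 and 311 in clone 3086 and 131 and 302 in clone 3087. Its difference was 1.19 ± 0.27. Rgcc, a regulator of the cell cycle, instead parted with OHT. It was at 159 and 148 in clone 3031, at 171 and 509 in clone 3086 and at 291 and 685 in clone 3087, a difference of 1.51 ± 0.50. Its other probe set gave OHT differences of 0.18, 1.38 and 0.76 in clones 3031, 3086 and 3087, on the same side at a smaller gap.

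Sox3, an X-linked SoxB1 factor of neural progenitors and epiblast, was at 261 without and 227 with OHT in clone 3031, at 399 and 161 in clone 3086 and at 488 and 131 in clone 3087. The Yaf2kd clones were above the Yaf2wt clone without OHT and below it with OHT, and all 6 values are above the limit. Its OHT difference was -0.20, -1.31 and -1.90. The difference between the groups was -1.40, with an unadjusted interval from -2.20 to -0.60, in a gene picked for the size of that difference. Atxn7l2, a relative of ataxin 7, was at 217 and 237, at 211 and 55.8 and at 257 and 120, a difference of -1.64 ± 0.62. Its value in clone 3086 with OHT is below the limit.

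A larger response in the Yaf2wt clone was found by size in 6 genes higher with OHT (0.0549%), Tmc8, Pdlim3, Aqp5, Fbxo36, Rab17 and Apln. In 4 of these (0.0366%), Pdlim3, Fbxo36, Rab17 and Apln, both Yaf2kd clones stayed within 0.5 of 0. It was found in 4 genes lower with OHT (0.0366%), Tigd3, Psg23, Cdh10 and Tmem38a, and the Yaf2kd clones stayed within 0.5 in 3 (0.0275%), the exception being Tigd3. Pdlim3, an actinin-binding LIM protein, was at 106 and 282 in clone 3031, at 304 and 312 in clone 3086 and at 257 and 249 in clone 3087. The Yaf2wt array without OHT is the low value, and the other 5 arrays lie between 249 and 312. Tmc8, a transmembrane channel-like protein, had the same form at 46.2 and 184, 216 and 181, and 216 and 141, with its lowest array below the limit. Tigd3, a transposase-derived gene, was at 159 and 41.9 in clone 3031, at 158 and 162 in clone 3086 and at 147 and 208 in clone 3087, so that there the Yaf2wt array with OHT stands apart. Rab17, Aqp5 and Apln were dim on the Yaf2wt array without OHT (45.2, 61.7 and 77.1), and Psg23 and Cdh10 on the Yaf2wt array with OHT (70.0 and 74.6). Fbxo36, an F-box protein, went from 206 to 438 in clone 3031, with 422 and 410 in clone 3086 and 755 and 756 in clone 3087, and its other probe set gave 0.29, 0.56 and -0.18. Tmem38a, a cation channel of internal membranes, had a difference of 1.25 that turned to -0.62 on its other probe set.

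Opposite responses, past 0.5 (log2) one way in the Yaf2wt clone and the other way in both Yaf2kd clones, were seen in 3 genes with Yaf2kd higher (0.0275%), Trpm1, Syndig1 and Dok3, and in 1 with Yaf2kd lower (0.00915%), Ms4a15. Trpm1, a cation channel of retina and pigment cells, had the largest difference of all genes compared. It was at 124 and 87.1 in clone 3031, at 47.7 and 199 in clone 3086 and at 69.2 and 254 in clone 3087. Its difference was 2.48 ± 0.41, and 3 of its arrays are below the limit. With the replicate block its adjusted p was 0.194 (limma). Ms4a15, a membrane protein of the MS4A family, was at 110 and 164, at 229 and 121 and at 172 and 106, a difference of -1.38 ± 0.34. Syndig1, a synaptic membrane protein, and Dok3, an adaptor of immune cells, had differences of 1.95 ± 0.50 and 1.76 ± 0.71.

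An array below the limit was present in 12 of the 19 genes of these classes. The Yaf2wt group has 1 array per condition, so the arrays that set each gene apart were counted. The Yaf2wt array without OHT was the highest or lowest of the 6 in 8 of the 19 genes (42.1%, against 26.8% of all genes compared), and the Yaf2wt array with OHT in 6 (31.6% against 35.7%). The Yaf2kd and Yaf2wt groups differed more without OHT than with it in 13 of the 19 (68.4% against 42.9%). For most of these genes the groups therefore stood further apart on the arrays without OHT. These counts describe genes chosen for the difference and carry no test.

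**Figure D3:**
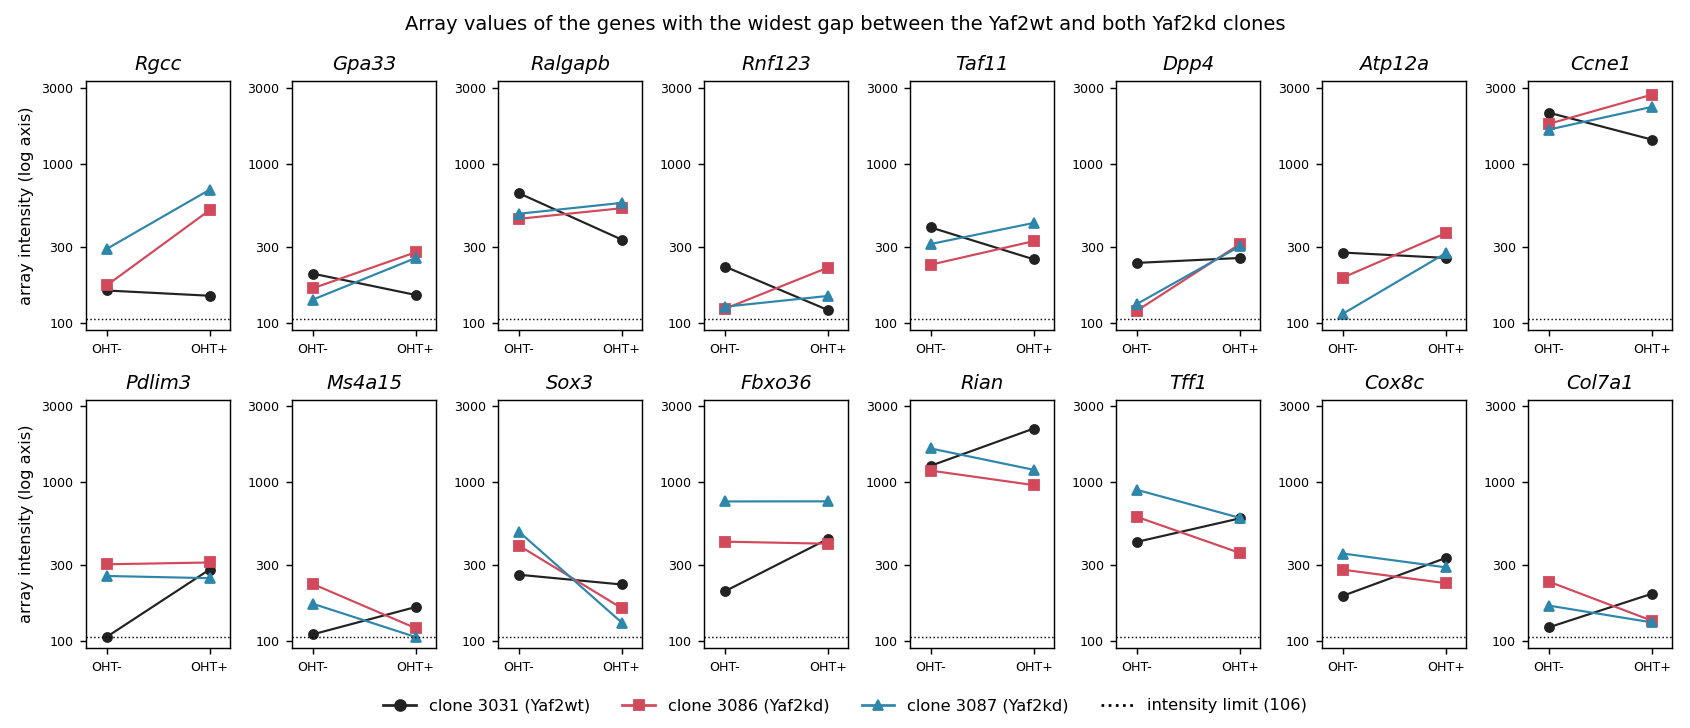
Array intensity (log axis) without and with OHT of the 16 genes with the widest gap among those at or above the limit on all 6 arrays, 1 line per clone, with Yaf2kd higher in the upper row and lower in the lower row. Dpp4 converges with OHT, Rgcc and Sox3 separate or cross, and in Pdlim3 and Fbxo36 the Yaf2wt array without OHT is the low point.

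Brighter genes are less open to background, and the widest gaps among genes at or above the limit on every array were ranked separately. With Yaf2kd higher they were Rgcc, Gpa33, Ralgapb, Rnf123, Taf11, Dpp4, Atp12a and Ccne1, and with Yaf2kd lower Pdlim3, Ms4a15, Sox3, Fbxo36, Rian, Tff1, Cox8c and Col7a1. Ralgapb, a subunit of the GTPase-activating complex for Ral, was at 651 and 333 in clone 3031, at 449 and 524 in clone 3086 and at 483 and 566 in clone 3087. Its difference was 1.19 ± 0.27, and its unadjusted p of 0.00385 did not pass adjustment. Ccne1, cyclin E1, was at 2086 and 1414, at 1778 and 2709 and at 1635 and 2270, a difference of 1.10 ± 0.29. Its other probe set, of similar brightness, gave OHT differences of 0.06, 0.08 and 0.21, so the 2 probe sets disagree on the size.

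Rian, an imprinted non-coding RNA expressed from the maternal chromosome beside Meg3, was at 1267 and 2169 in clone 3031, at 1179 and 956 in clone 3086 and at 1625 and 1193 in clone 3087. The Yaf2wt array with OHT is the highest of the 6, and the other 5 lie between 956 and 1625. The OHT difference was 0.78, -0.30 and -0.45, and its other probe set gave 0.74, -0.66 and -0.53. The difference between the groups was -1.15, with an unadjusted limma interval from -2.06 to -0.24. Rian was picked for its wide gap, which favours such an interval, and it did not pass the test of the difference. Taf11, a TFIID subunit, had OHT differences of -0.66, 0.49 and 0.44 and Gpa33, a surface antigen of intestinal epithelium, of -0.45, 0.75 and 0.87. Cox8c, a testis form of a cytochrome oxidase subunit, was at 0.79, -0.28 and -0.29, and Tff1, a trefoil factor, at 0.49, -0.75 and -0.58. Atp12a, a proton pump, was at -0.11, 0.93 and 1.27, Rnf123, a ubiquitin ligase, at -0.91, 0.86 and 0.22, and Col7a1, the type VII collagen, at 0.70, -0.81 and -0.35. Of the 39 genes with a gap of 2-fold or more, 8 had another probe set at or above the limit. In 4 of the 8 it lay on the same side (Ccne1, Gpa33, Rgcc and Rian), and in 1 with a gap of 2-fold.

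**Figure D4:**
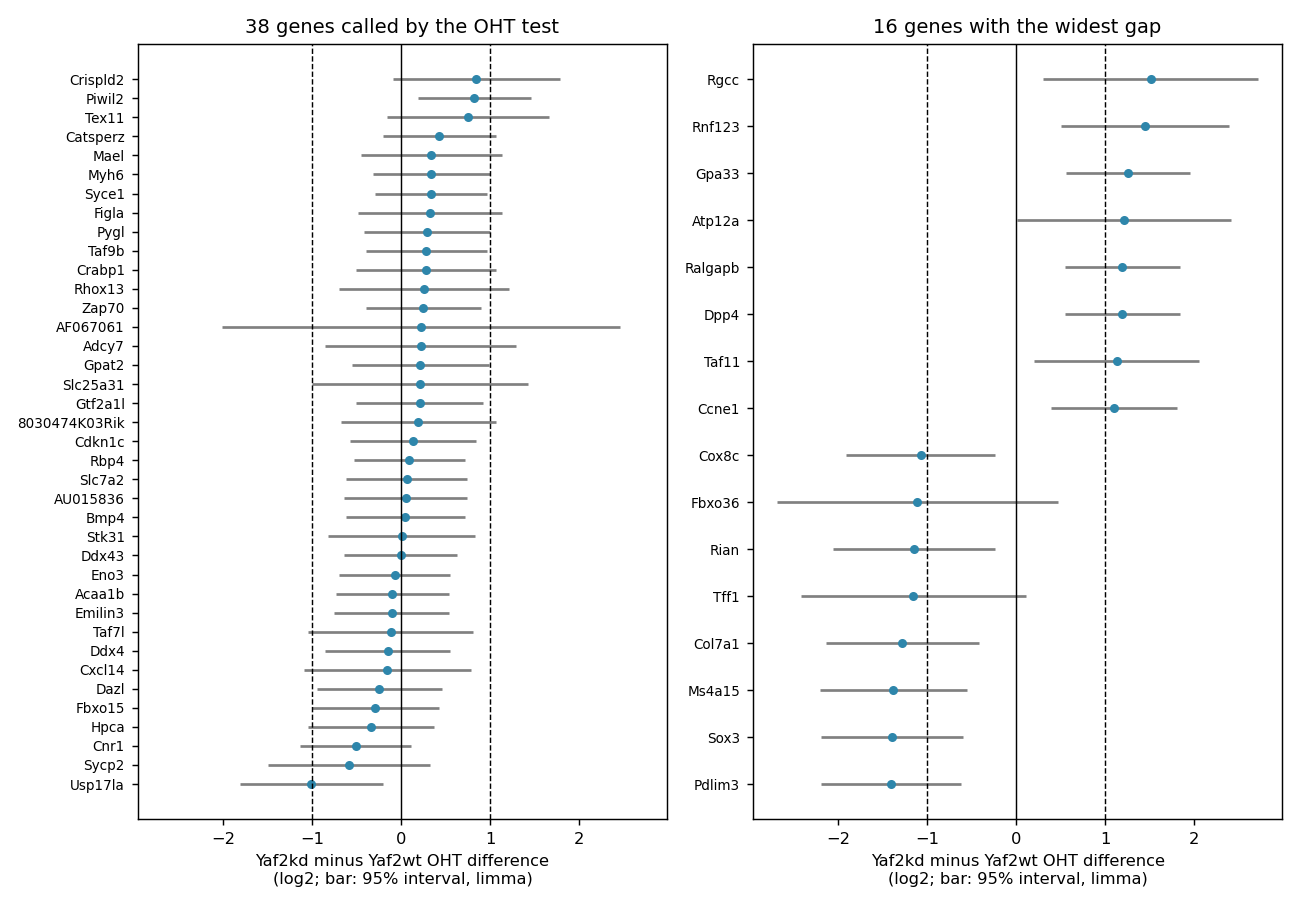
Yaf2kd minus Yaf2wt difference of the OHT differences (log2, points) with its unadjusted 95% limma interval (bars) for the 38 genes called by the OHT test (left) and the 16 genes with the widest gap (right), with 0 solid and 2-fold dashed. On the left 32 of 38 points lie within 0.5 of 0, and on the right all 16 points lie beyond 1 in size. Both follow from the choice of genes, since the OHT test favours small differences and the gap selects large ones.

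Additive responses, in which OHT and Yaf2 each shift a gene, were found in few genes. At 1.5-fold for each, 0 genes (0%) showed shifts in the same direction and 2 (0.0183%) in opposite directions, AF067061 and Csn3. Csn3, kappa-casein, was at 274 and 133 in clone 3031, at 422 and 236 in clone 3086 and at 482 and 284 in clone 3087. It was lower with OHT in each clone and higher in the Yaf2kd clones in each condition, and the difference of its OHT differences was 0.24 ± 0.30. AF067061, a gene of a repeated family read by a probe set that can match several sequences, went from 70.9 to 902, from 11.9 to 256 and from 38.6 to 395. Its 3 arrays without OHT are below the limit, so it entered the comparison through the OHT arrays, and against the limit it was at least 4.25-fold higher with OHT. The Yaf2 effect over both OHT states called 0 genes (0%) by limma, with 1338 at an unadjusted p under 0.05 and a lowest adjusted p of 0.120. A combined-only pattern, with both Yaf2kd OHT+ arrays 2-fold outside 4 similar arrays, was met by 0 genes (0%).

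Gene lists, chosen with earlier results of these data known, placed these values among pathways. In the germline and meiosis list (45 genes at or above the limit) the median OHT difference was 0.55 (clone 3031), 0.74 (clone 3086) and 0.86 (clone 3087), against -0.02, -0.00468 and 0.00639 over all genes. Of the 45, 13 were 2-fold higher in clone 3031, 20 in clone 3086 and 21 in clone 3087, and 13 rose by the additive test (36 of all genes). Over all genes compared 0.568%, 1.19% and 1.69% were 2-fold higher in these clones, so the count over all genes was also larger in the Yaf2kd clones. Both Yaf2kd clones lay above the Yaf2wt clone in 19 (42.2%, against 33.1% of all genes) and below it in 9 (20.0%, against 26.1%). The median difference of the OHT differences in this list was 0.09 (0.156 with the mean of the probe sets and 0.267 with the other probe set), and 0 of 45 passed the test of the difference by limma, with 3 at an unadjusted p under 0.05 (Hormad1, Piwil2 and Smc1b). Smc1b, the meiotic cohesin subunit, was at 274 and 241 in clone 3031, at 170 and 261 in clone 3086 and at 120 and 363 in clone 3087. Like Hormad1 and Piwil2, it was lower in the Yaf2kd clones without OHT. These 3 were picked for their difference, which favours such levels, and the comparison without OHT rests on 1 Yaf2wt array.

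The naive and core pluripotency list (37 genes) had medians of 0.12, 0.27 and 0.20 in clones 3031, 3086 and 3087. In both Yaf2kd clones 12 genes lay above the Yaf2wt clone (32.4%, against 33.1% of all genes) and 9 below it (24.3%, against 26.1%). Tcl1, an Akt co-activator of embryonic stem cells, was at 1322 and 1776, at 826 and 1856 and at 926 and 1845. Tfcp2l1, a naive-state transcription factor, was at 2270 and 2968, at 1549 and 2789 and at 1161 and 2991. In both, the Yaf2kd clones were lower without OHT and reached the level of the Yaf2wt clone with it, and the differences were 0.66 ± 0.27 and 0.72 ± 0.33. Both were picked for their difference, which favours such levels, and the comparison without OHT rests on 1 Yaf2wt array. Prdm14, a regulator of germ cells and naive cells, had the opposite sign at -0.61 ± 0.28. These bright genes did not pass (adjusted p = 1.00 each, limma).

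The primed epiblast list (15 genes) leaned the other way, with medians of -0.20, -0.17 and -0.50, and 8 of 15 genes lower in all 3 clones against 20.4% of all genes. Both Yaf2kd clones lay below the Yaf2wt clone in 6 of 15 (40%, against 26.1% of all genes). They lay above it in 3 (20%, against 33.1%). The members named next were picked for the size of their difference, and all are among those below. Beside Sox3, Sall2 was at -0.33, -0.76 and -1.02, Foxd3, a repressor of the exit from pluripotency, at 0.17, -0.60 and -0.52, and Lef1, a Wnt effector, at 0.42, -0.03 and -1.05. The neuroectoderm list (17 genes) had medians of -0.35, -0.13 and -0.47. There both Yaf2kd clones lay above the Yaf2wt clone in 7 of 17 (41.2%, against 33.1% of all genes). They lay below it in 3 (17.6%, against 26.1%). Sox1, a neural SoxB1 factor and 1 of those below, was at -0.69, -0.98 and -1.60. The trophectoderm and placenta list (20 genes) was at 0.34, 0.39 and 0.39, and the fibroblast list (28 genes) at 0.21, 0.18 and 0.28.

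**Figure D5:**
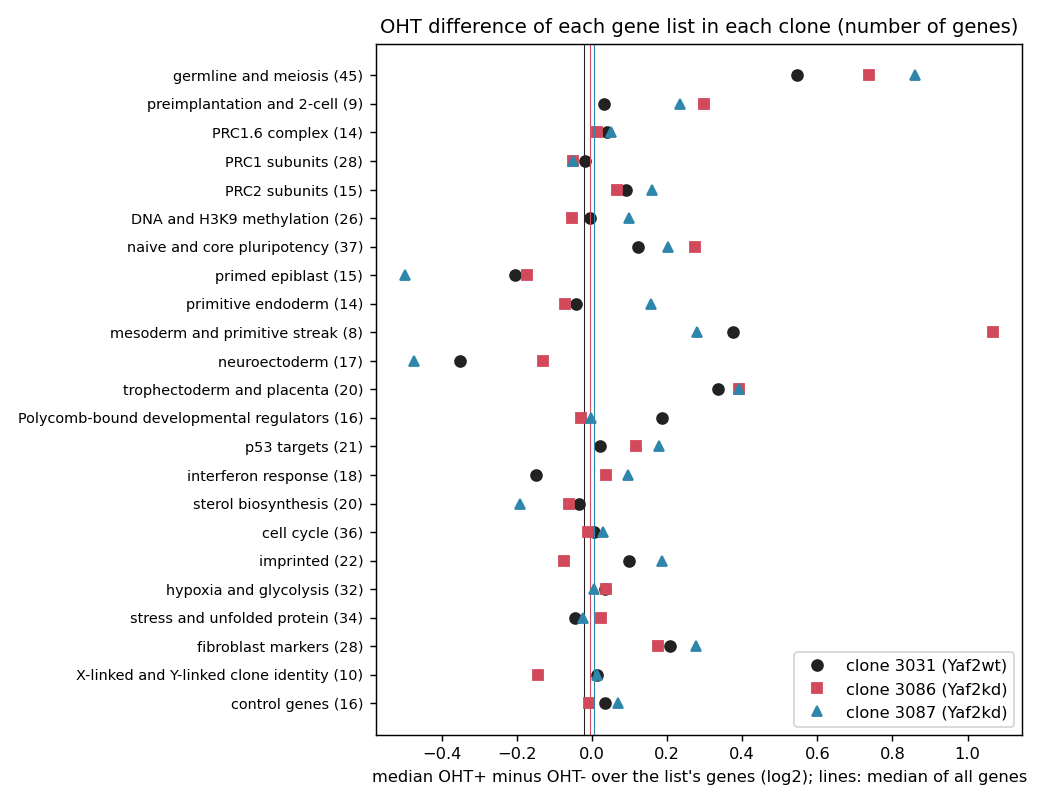
Median OHT difference (log2) of each gene list in each clone, with the number of genes at or above the limit in brackets and thin lines at the median of all 10923 genes. The germline list lies furthest right in clones 3031 and 3087 and second to the 8-gene mesoderm list in clone 3086, and most lists lie near 0 in every clone.

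For the Polycomb machinery itself the medians lay near those of all genes. Among 14 genes of the PRC1.6 complex they were 0.04, 0.01 and 0.05, 0 of 14 were 2-fold higher in any clone, and limma called 0 for OHT, with 0 at an unadjusted p under 0.05 for the difference of the OHT differences. Both Yaf2kd clones lay below the Yaf2wt clone in 7 of 14 (50%, against 26.1% of all genes) and above it in 4. Max, the partner of Mga, had the widest difference at -1.15 ± 1.33, with 138 and 231 in clone 3031, 93.0 and 129 in clone 3086 and 539 and 221 in clone 3087, so that clone 3087 without OHT stands apart. The 28 genes of the PRC1 list had medians of -0.02, -0.05 and -0.05, and the 15 PRC2 subunits 0.09, 0.07 and 0.16. Phf1, a PRC2 accessory protein, was the member at 0.23, -0.54 and -0.83, a difference of -0.91 ± 0.32. The preimplantation and 2-cell list had 9 genes at or above the limit, with medians of 0.03, 0.30 and 0.24. The interferon list (18 genes) was at -0.15, 0.04 and 0.10, with both Yaf2kd clones above the Yaf2wt clone in 10 of 18 (55.6%) and 0 genes 2-fold higher in any clone. The 16 control genes were at 0.03, -0.01 and 0.07. The remaining lists (DNA and H3K9 methylation, primitive endoderm, mesoderm, Polycomb-bound regulators, p53 targets, sterol synthesis, cell cycle, imprinted genes, hypoxia, stress and clone identity genes) had median differences of the OHT differences between -0.20 for the Polycomb-bound regulators and 0.17 for the p53 targets, against 0.0253 over all genes.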

How the data were processed

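Biotin-labelled cRNA from total RNA of 6 cultures was hybridised to Affymetrix mouse arrays. The deposited intensity values are linear and positive, and the 6 arrays hold identical sorted values, as quantile normalization leaves them. Per the submitters' processing notes, the tools were RMA and Affymetrix Expression Console, without versions. They were put on the log2 scale as deposited, with nothing added. The table has 45101 probe sets, of which 34958 have 1 gene symbol in the platform annotation, 932 several and 9211 none (the series text speaks of the smaller 430A 2.0 array). Gene identifiers matched the mouse reference for 99.4%. Probe sets without a symbol of their own were not used, apart from Rybp and the class counts under other observations. The limit of 106 is the 40th percentile of the genes' geometric mean intensity.

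The fits used limma 3.58.1 (lmFit, eBayes) under R 4.3.3. The p-values were adjusted by Benjamini-Hochberg over the 10923 genes, at 0.05. The difference of the OHT differences came from 4 groups (2 residual degrees of freedom) and the OHT and Yaf2 effects from an additive model (3). The Yaf2wt arrays, 1 per condition, are taken to have the spread of the Yaf2kd groups. A fit with the clone as block was the alternative: replicate numbers follow the clones in the labels, so they pair the arrays, and the deviations of the Yaf2kd arrays from their group means correlated at 0.124 across genes between arrays of a clone. The labels call the Yaf2kd clones biological duplicates, and p-values reflect no spread other than that between these cultures. The number of arrays limits the precision. Classes by size used 2-fold per clone, and 1.5-fold for the additive class.

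The comparison, the 23 gene lists (793 entries, from general knowledge) and the naming rule were chosen with earlier results of these data known. Named are Rybp and Yaf2, the 8 widest gaps in each direction among genes at or above the limit on all 6 arrays, and the 10 largest shared differences in each direction. Up to 6 genes a class and up to 4 a list are named as well. Bmp4, Fbxo15, Dazl, Ddx4, Stk31, Mov10l1, Sycp1, Sycp2 and Crispld2 are shared genes named beyond that rule, after their values were seen, as was Max.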

Additional observations from a re-analysis of the deposited data

Results flagged for a closer look

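In the genes listed here the Yaf2wt clone moved one way with OHT and both Yaf2kd clones the other way. This held for 1956 of the 10923 genes (17.9%), and the limma test of the difference passed for none of them, with 0 of 10923 genes called and 201 at an unadjusted p under 0.05. All values are the Yaf2kd minus Yaf2wt difference of the OHT differences (log2).

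Higher in the Yaf2kd clones were Trpm1 (2.48), Tigd3 (2.20), Syndig1 (1.95), Dok3 (1.76), Psg23 (1.56), Rgcc (1.51), Rnf123 (1.45), Smc1b (1.30), Gpa33 (1.26), Tmem38a (1.25), Atp12a (1.21), Ralgapb (1.19), Taf11 (1.13), Ccne1 (1.10) and, with a small value, Yaf2 itself (0.21). Lower were Tmc8 (-2.43), Atxn7l2 (-1.64), Aqp5 (-1.61), Ms4a15 (-1.38), Col7a1 (-1.28), Tff1 (-1.16), Rian (-1.15), Cox8c (-1.07), Lef1 (-0.96), Phf1 (-0.91) and Foxd3 (-0.73). In Rgcc, Atp12a, Yaf2, Atxn7l2, Foxd3 and Smc1b the Yaf2wt clone lay within 0.2 (log2) of 0, so its direction rests on a small value. The same limit holds on the Yaf2kd side, as in Aqp5, Lef1, Tigd3 and Yaf2, where clone 3086 lay within 0.2 of 0. Of the 39 genes with a gap of 2-fold or more, 31 were of this kind.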

How the results depend on the processing

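The test of the difference of the OHT differences called 0 genes in every alternative of the filter, variance model, replicate block, probe set, pseudocount and left-out Yaf2kd array that was run, except that the replicate block with an intensity trend, chosen after seeing the data, called 2 (Tcl1b3 and Irak1, outside the naming rule). The Yaf2wt arrays could not be left out of that test. The OHT effect over 3 clones called 38 genes. It called 0 over all genes, 126 with an intensity trend, 64 with the replicate block, 1 with the second-brightest probe set, 70 and 58 with a pseudocount of 50 and 16, and 350 with the replicate block and trend together. Without 1 array it called from 1 to 22. The Yaf2 effect called 14 genes with an intensity trend.

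The classes by size depend most on the filter. Over all genes, dim ones included, shared responses numbered 214, larger in Yaf2kd 458, larger in Yaf2wt 1393, opposite 492, additive 55 and combined-only 31. Over genes at or above the limit on all 6 arrays, the first 5 numbered 15, 4, 2, 1 and 1. At 1.5-fold, shared responses numbered 112, larger in Yaf2kd 59, larger in Yaf2wt 97 and combined-only 9. At 3-fold, shared responses numbered 9, larger in Yaf2kd 1, larger in Yaf2wt 2 and additive 0. With a pseudocount of 50, larger in Yaf2kd numbered 2, larger in Yaf2wt 3, opposite 1 and additive 0.

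Of the 544 alternative values of the named genes' differences of differences, 543 kept their direction and 1 turned, Tmem38a at -0.62 with the other probe set. Changes of filter, variance model or replicate block leave the estimate as it is, so those values could not turn. Many genes were named because both Yaf2kd clones lay on the same side, which favours a kept direction when an array is left out. The count is thus no measure of stability. Since the test called 0 genes, the side of the threshold says nothing of the genes' stability either. In 7 of the 544 the size was less than 50% of the main one, 4 of them among the 9 from the other probe set, as in Ccne1 at 0.0848 against 1.10. The OHT differences of named genes all kept their direction, with the same limit for filter, variance model and block. Of them, 286 kept their side of the threshold, 100 lost the call and 51 gained it. Of the list medians 31 of 90 values moved by more than the spread between the Yaf2kd clones. Some of the 90 are medians from 1 Yaf2kd clone alone, and the distance between those medians sets that spread. Such values tend to stay within it, so this share is no measure of stability. The cause of these changes was not tested. Signal over background limits every gene with an array below 106.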

Other observations

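Among probe sets without a gene symbol of their own, 2605 were at or above the limit. The size classes gave there 7 shared probe sets higher with OHT and 3 lower, 3 larger in Yaf2kd, 8 larger in Yaf2wt, 2 opposite, 1 additive and 0 combined-only. Both Rybp probe sets are among these, the first described above with the 3 lower and the other with the 7 higher.

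Meg3, the imprinted RNA beside Rian, chosen after its values were seen, was at 15542 and 17308 in clone 3031, at 14404 and 9746 in clone 3086 and at 8874 and 10724 in clone 3087, without and with OHT, so its OHT difference was 0.16 and -0.56 in the first 2 clones and positive in clone 3087. Oas2, an antiviral synthetase, and Ifit2 from the interferon list had differences of the OHT differences of -0.89 and 0.72, in opposite directions, and did not pass. Cited1 of the trophectoderm list was at -1.02, 0.20 and -0.34 in clones 3031, 3086 and 3087.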
